A study of Mus musculus with 4 samples.

Results

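The blood coagulation and fibrinolysis genes described here are 34 genes of the clotting cascade, of fibrin formation, of the anticoagulant systems and of clot breakdown. They were chosen by symbol in the authors' deposited gene table, without use of its fold changes or p-values, and serpins were left out. All 34 were found, each with 1 probe, among 20909 named genes. RNA from livers of Wrn mutant mice was compared with RNA from livers of wild-type mice on two-colour Agilent arrays. Wrn encodes a RecQ helicase, and people who lack it have Werner syndrome, in which signs of ageing come early. Both genotypes were C57Bl/6 males of 3 months with no treatment, with food freely available and light and dark phases of 12 h each that were reversed. The labels call the Wrn allele only mutant, without naming the altered region. Every array, 4 in all, held 1 mutant liver against 1 wild-type liver, with the mutant in Cy3 in pairs 1 and 2 and in Cy5 in pairs 3 and 4.

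Values are log2 ratios, in which 0 means equal signal in both livers of a pair. They are read as mutant over wild type, a direction that is likely but not stated: the mutant comes first in the titles of the samples and in the name of the authors' table. In the authors' deposited table the fold change equalled the mean of the 4 arrays within 1e-04 for 17537 of 17686 genes with 4 values, so the authors averaged the arrays as if they ran 1 way. With wild type as numerator all signs given here would be opposite. The Wrn probe itself was at 1.77, 0.91, 1.12 and 1.37 in pairs 1 to 4, above 0 in each. Whether it lies in the altered region is not given, so it checks neither labels nor direction. Pairs 1 to 4 had values for 37627, 40032, 40104 and 39979 of 41174 probes, and the 6 correlations between arrays across named probes lay between 0.0095 and 0.18, or between 0.16 and 0.37 above the median intensity. Hepatocyte markers, albumin among them, were bright, with a median average log2 intensity of 15.02 against 6.40 for all named probes. The median log2 ratio of those 11 markers was 0.08.

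Most plasma clotting factors are made by hepatocytes and secreted as inactive precursors. Tissue factor with factor VII, or the contact system with factors XII, XI, IX and VIII, leads to active factor X, which with factor V turns prothrombin into thrombin. Thrombin cuts fibrinogen to fibrin, factor XIII cross-links it, and plasmin dissolves it. Several factors need a vitamin K-dependent carboxylation of glutamate residues to bind membranes, and protein C, protein S and tissue factor pathway inhibitor hold the cascade back.

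Across the 34 genes the ratios were small. The fitted log2 ratio ran from -0.77 for F13a1 to 0.74 for Plau, and it was under 0.25 in size in 19 genes and over 0.5 in 6. The median was -0.11, against 0.042 over all named probes, and 22 members were negative, where 46.6% of named probes were. In the fit over all 40238 probes with limma, a term for dye orientation and Benjamini-Hochberg adjustment, 0 members and 0% of all probes passed an adjusted p of 0.05. The adjusted p of the members ran from 0.736 to 0.996. Saa1 and Saa2, acute phase genes with fitted log2 ratios of -4.40 and -5.29, had the same adjusted p of 0.736 by limma. Falling short of the threshold in this fit therefore does not show that a member was unchanged. At an unadjusted p under 0.05 there were 5 lower members, F13a1, Fgg, Ggcx, Pros1 and F9, against a background of 4.52% of named probes, and 2 higher members, Plat and Plau, against 4.74%. When the prior variance followed probe intensity, 0.206% of named probes passed, and among the members the lowest adjusted p was 0.151, for Pros1.

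**Figure D1:**
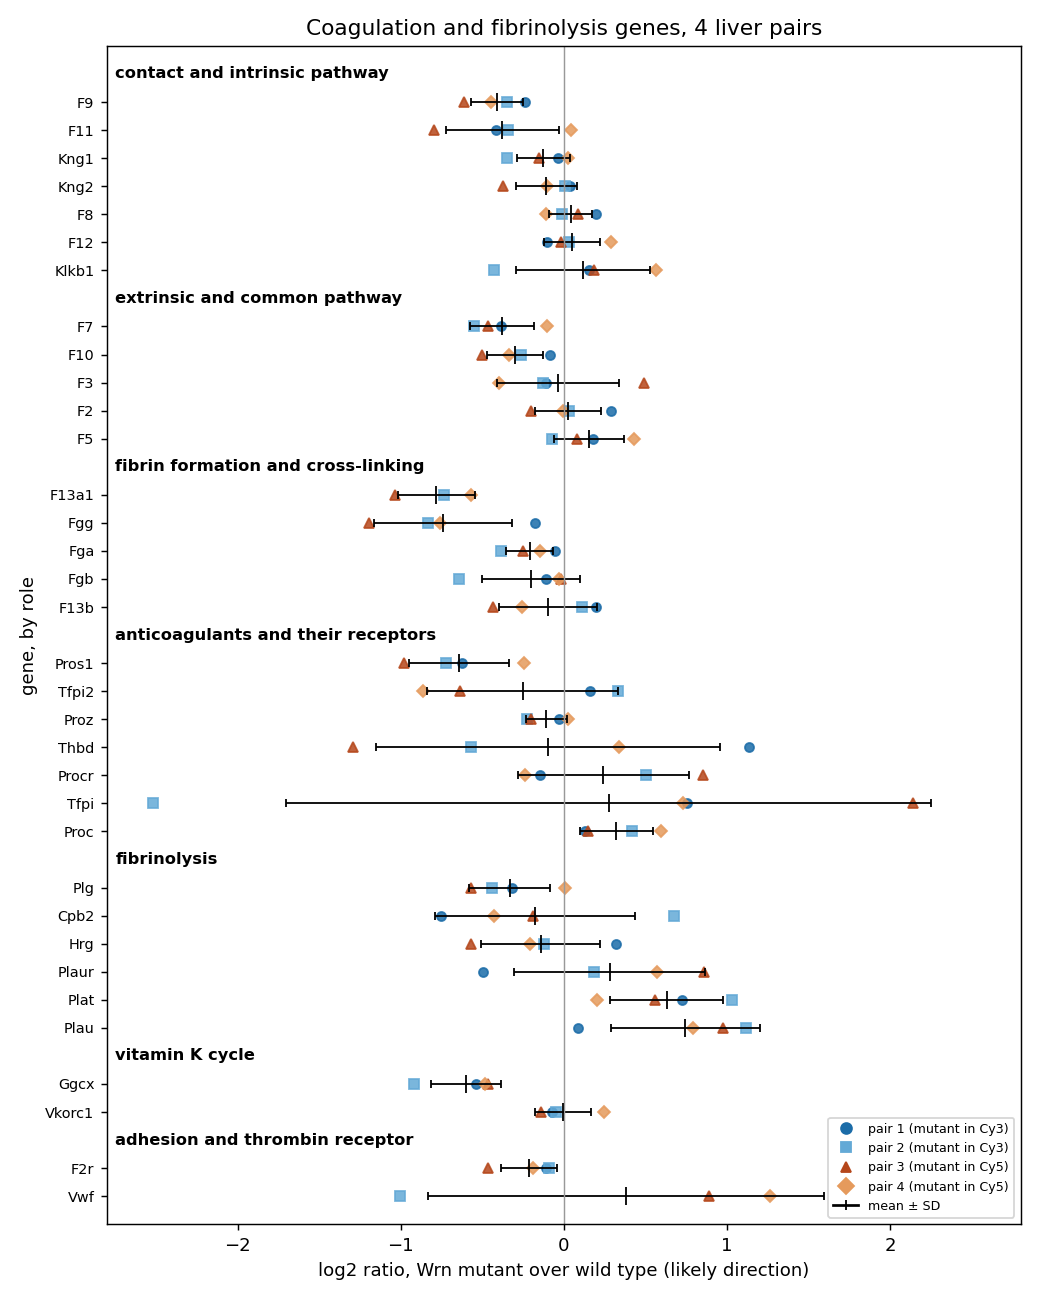
Log2 ratio (x axis, mutant over wild type, likely direction) of each of 34 genes (y axis, by role) in 4 liver pairs, 1 marker shape per pair, with blue for the mutant in Cy3 and orange for the mutant in Cy5, and the mean ± SD in black. Fgg, Pros1 and Ggcx lie left of 0 and Plat and Plau right of 0 in all 4 pairs, while Tfpi, Thbd and Vwf spread over both sides.

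Of the 32 members with 4 values, 9 were lower in the mutant in 4 of 4 pairs, where 10.1% of named probes with 4 values were. They were Fgg, Pros1, Ggcx, F9, F7, F10, F2r, Fga and Fgb. Those higher in 4 of 4 pairs numbered 3, Plau, Plat and Proc, where 10.9% of named probes were. The other 20 had mixed signs. Without pair 4, 14 members were lower in each of the other 3 pairs, where 17% of named probes were. With a mean beyond 0.5 as well, 3 members remained on the lower side (background 4.32%) and 2 on the higher side (background 4.5%). With 4 pairs the smallest p of an exact sign-flip test, two-sided, is 0.125, and each gene of 1 sign in all pairs has that value.

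Members that form and cross-link fibrin were all negative, 5 of 5, with a median of -0.21. Fgg, the fibrinogen gamma chain, had log2 ratios of -0.17, -0.83, -1.19 and -0.76 in pairs 1 to 4. It was lowest in pair 3 and nearest 0 in pair 1. The mean was -0.74 ± 0.42 (SD, n = 4), or 1.67-fold lower in the mutant, short of the threshold (limma, adjusted p = 0.736 over all probes). Fga, the alpha chain, was at -0.05, -0.39, -0.25 and -0.15, with a mean of -0.21 ± 0.14 (SD, n = 4). Fgb, the beta chain, was at -0.11, -0.65, -0.02 and -0.03, with a mean of -0.20 ± 0.30 (SD, n = 4). All 3 chains were thus below 0 in every pair, but in Fgb 3 of the 4 values lay close to 0, and its fitted value was -0.068 without pair 2 and -0.33 without pair 1.

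The chains form 1 protein and their genes lie side by side on chromosome 3, with no other protein-coding gene between them in assembly GRCm38.p6. Within each array Fgg was below Fga, by log2 differences of -0.12, -0.45, -0.94 and -0.61, and below Fgb, by -0.06, -0.19, -1.18 and -0.73. The differences Fga minus Fgb had mixed signs and a mean of -0.0086 ± 0.21 (SD, n = 4). These contrasts were picked after the values were seen and carry no test. The probes for Fga and Fgg had average log2 intensities of 15.7 and 14.9, where the brightest named probe stood at 15.9. Whether bright spots were saturated was not analysed here, which also applies to Kng1, Plg and F2, with probes at 15.8, 15.4 and 15.3.

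The stretches before the start sites of the 3 neighbouring chains, and of Pros1 described below, are shown because these genes lie among those lower in all pairs, and fibrinogen is a textbook target of interleukin 6 signalling and of the liver factor HNF1. Each is 250 bases from RefSeq (GRCm38.p6), 5′ to 3′ on the gene's strand and ending just before the annotated start, with capitals for matches to TTCNNNGAA (STAT), CTGGGAA (interleukin 6 response element) or, with up to 2 mismatches, the palindromic HNF1 consensus.
Fgg, chr3:83007474-83007723, plus strand: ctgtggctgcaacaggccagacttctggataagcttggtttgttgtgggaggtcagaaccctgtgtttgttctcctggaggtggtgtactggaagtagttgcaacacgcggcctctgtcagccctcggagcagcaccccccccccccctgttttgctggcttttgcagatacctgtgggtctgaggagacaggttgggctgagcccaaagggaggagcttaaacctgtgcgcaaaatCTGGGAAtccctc
Fga, chr3:83025903-83026152, plus strand: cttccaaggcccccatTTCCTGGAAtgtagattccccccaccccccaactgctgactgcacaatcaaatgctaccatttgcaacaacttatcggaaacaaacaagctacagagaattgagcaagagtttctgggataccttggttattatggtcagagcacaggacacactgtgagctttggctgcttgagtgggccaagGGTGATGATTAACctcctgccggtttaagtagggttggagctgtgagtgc
Fgb, chr3:83049864-83050113, minus strand: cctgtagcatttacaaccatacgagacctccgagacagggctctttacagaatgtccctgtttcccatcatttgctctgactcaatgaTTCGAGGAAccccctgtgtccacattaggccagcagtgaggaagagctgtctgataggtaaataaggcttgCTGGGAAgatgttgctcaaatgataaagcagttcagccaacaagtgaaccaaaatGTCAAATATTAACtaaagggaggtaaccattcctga
Pros1, chr16:62854057-62854306, plus strand: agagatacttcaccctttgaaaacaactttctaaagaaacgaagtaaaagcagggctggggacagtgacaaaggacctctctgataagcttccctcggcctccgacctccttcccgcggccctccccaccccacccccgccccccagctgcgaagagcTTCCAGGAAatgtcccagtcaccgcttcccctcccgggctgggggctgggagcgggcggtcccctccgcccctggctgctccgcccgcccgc

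Both strands were searched. Fgb held all 3 motifs, Fga the STAT and HNF1 motifs, Fgg CTGGGAA alone and Pros1 the STAT motif alone. Of 32851 promoters of this length, 7.02% held TTCNNNGAA, 9.1% CTGGGAA and 1.24% the HNF1 motif. Such shares are per promoter, while a member counts once if any of its promoters matched, and some have more than 1. Among the 27 members with a promoter in the table, 4 held the STAT motif (F9, Fga, Fgb and Pros1), 5 CTGGGAA (F9, Fgb, Fgg, Tfpi and Tfpi2) and 4 the HNF1 motif (F13b, Fga, Fgb and Tfpi2). In F9 the STAT and interleukin 6 motifs overlap at the same bases. The HNF4 motif CAAAGTCCA was in 0 members and 0.384% of promoters, and TTNCNNAA (C/EBP) was in 15 members and 36.8% of promoters. The members Kng1, Plat, Plau, Plg, Proc, Thbd and Vwf were not searched. A match describes letters in a window and not a bound site.

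Of the cross-linking subunits, F13a1 encodes the catalytic A subunit of factor XIII, made by macrophages and megakaryocytes. It had no value in pair 1 and read -0.74, -1.04 and -0.57 in pairs 2 to 4. All 3 values were below 0, with a mean of -0.78 ± 0.24 (SD, n = 3). The fit, in which pair 2 counts as much as pairs 3 and 4 together, gave -0.77 (limma, unadjusted p = 0.0462, adjusted p = 0.736). Its probe was dim, at 5.40. F13b, the carrier subunit, was at 0.20, 0.11, -0.43 and -0.26, positive with the mutant in Cy3 and negative with the mutant in Cy5. Its mean was -0.10 ± 0.30 (SD, n = 4).

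**Figure D2:**
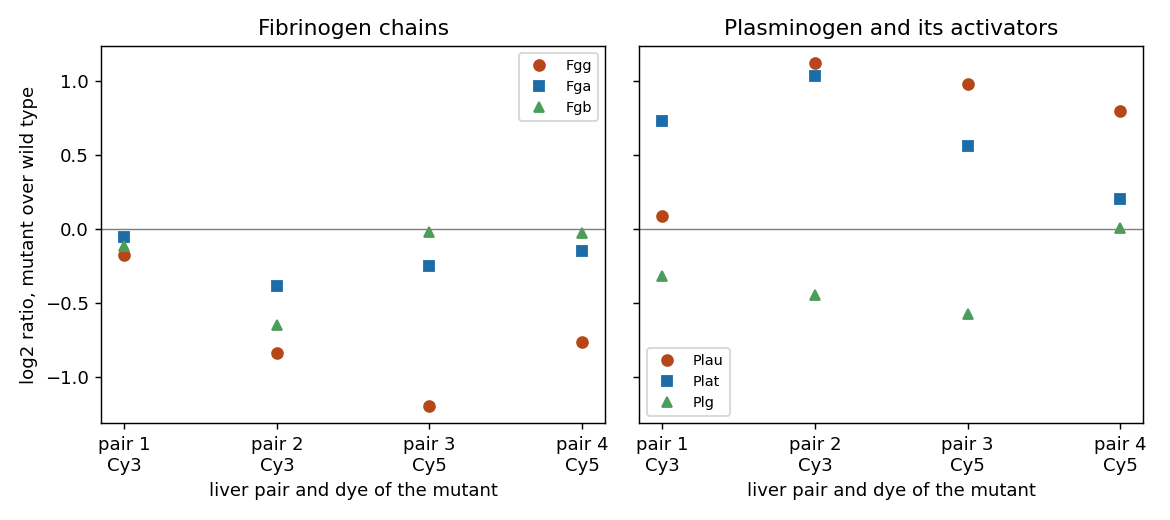
Log2 ratio (y axis, mutant over wild type) in each liver pair (x axis, with the dye of the mutant) for the 3 fibrinogen chains on the left and for plasminogen and its activators on the right, 1 point per pair. Fgg lies below Fga and Fgb in each pair, and Plau and Plat lie above Plg in each pair.

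Among the 7 genes of the contact and intrinsic pathway, 4 were negative and the median was -0.11. F9, the protease factor IX, was at -0.24, -0.35, -0.61 and -0.45. All pairs were below 0 within a narrow range, and the mean was -0.41 ± 0.16 (SD, n = 4), with an unadjusted p of 0.0493 and an adjusted p of 0.736 by limma. F11, the protease that activates factor IX, was at -0.41, -0.34, -0.80 and 0.05, negative in all pairs but pair 4, with a fitted value of -0.17 without pair 3 and -0.59 without pair 4. Its neighbour on chromosome 8, Klkb1, encodes plasma prekallikrein and was at 0.15, -0.43, 0.18 and 0.56, positive in all pairs but pair 2. Kng1 and Kng2, which encode kininogens, stood at means of -0.13 ± 0.16 and -0.11 ± 0.19 (SD, n = 4). These 2 genes are near-identical copies, so their probes may share signal. F12, the Hageman factor that starts the contact pathway, averaged 0.05 ± 0.17 (SD, n = 4). F8, the cofactor made by sinusoidal endothelium, averaged 0.04 ± 0.13 (SD, n = 4).

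The 5 genes of the extrinsic and common pathway had a median of -0.04, with 3 negative. F7, the partner of tissue factor, was at -0.39, -0.55, -0.47 and -0.10, and averaged -0.38 ± 0.20 (SD, n = 4, adjusted p = 0.736 by limma). F10, which forms the prothrombin-cleaving enzyme, was at -0.09, -0.26, -0.50 and -0.34, and averaged -0.30 ± 0.17 (SD, n = 4). F7, F10 and Proz lie next to each other on chromosome 8. Proz, protein Z, a cofactor for the inhibition of factor Xa, averaged -0.11 ± 0.12 (SD, n = 4), and F7 was below it in every pair. F2, prothrombin, had values on both sides of 0 and a mean of 0.03 ± 0.20. F5, the cofactor of factor Xa, averaged 0.15 ± 0.21, with a negative value in pair 2 alone. F3, tissue factor, averaged -0.04 ± 0.37, with 0.49 in pair 3 against -0.40 to -0.11 in the others.

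The anticoagulant proteins did not share a direction. Pros1 encodes protein S, the cofactor of activated protein C, and was at -0.62, -0.72, -0.98 and -0.25. All values were below 0, that of pair 3 lowest, and the mean of -0.64 ± 0.30 (SD, n = 4) is 1.56-fold lower in the mutant (limma, unadjusted p = 0.0299, adjusted p = 0.736). Proc, protein C itself, was at 0.13, 0.42, 0.15 and 0.60, above 0 in every pair, with a mean of 0.32 ± 0.23 (SD, n = 4, adjusted p = 0.744 by limma). Its probe was among the brighter ones, at 13.9.

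The receptors that serve protein C on endothelium were uneven. Thbd, thrombomodulin, was at 1.13, -0.57, -1.29 and 0.34, so both dye orientations held values of both signs. Procr, the endothelial protein C receptor, was at -0.15, 0.50, 0.86 and -0.24. Tfpi, the inhibitor of tissue factor and factor VII, had the widest spread of all members, at 0.76, -2.52, 2.14 and 0.73, on a probe with an intensity of 4.46. Tfpi2, a related Kunitz-type inhibitor, was at 0.16, 0.33, -0.64 and -0.86, with its sign following the dye orientation.

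In fibrinolysis the 2 plasminogen activators were positive and their substrate negative. Plau encodes urokinase and was at 0.09, 1.12, 0.98 and 0.79. Pair 1 lay near 0 and the other 3 close together, with a mean of 0.74 ± 0.46 (SD, n = 4), or 1.67-fold higher in the mutant (limma, unadjusted p = 0.0336, adjusted p = 0.736). Plat, tissue plasminogen activator, was at 0.73, 1.03, 0.56 and 0.20. All 4 were above 0, both pairs with the mutant in Cy3 above both with the mutant in Cy5, and the mean was 0.63 ± 0.35 (SD, n = 4), or 1.55-fold higher (limma, unadjusted p = 0.0192, adjusted p = 0.736). The fitted log2 ratio of Plau was 0.49 without pair 2 and 1.001 without pair 1. Both probes were dimmer than the median named probe, at 5.21 and 5.98.

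Plg, plasminogen, which the liver secretes in large amounts, was at -0.32, -0.44, -0.57 and 0.0048. It was negative in pairs 1 to 3 and at 0 in pair 4, with a mean of -0.33 ± 0.25 (SD, n = 4) and a fitted value of -0.19 without pair 3. Plaur, the urokinase receptor, averaged 0.28 ± 0.59 and was negative in pair 1. Cpb2, the carboxypeptidase that protects fibrin from plasmin, averaged -0.17 ± 0.61, with 0.68 in pair 2 against -0.75 to -0.19 in the others. Hrg, a histidine-rich plasma protein that binds plasminogen and lies next to Kng2 on chromosome 16, averaged -0.14 ± 0.36 (SD, n = 4).

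The vitamin K cycle was represented by its carboxylase and its reductase. Ggcx, gamma-glutamyl carboxylase, was at -0.54, -0.92, -0.46 and -0.48. Pairs 1, 3 and 4 lay close together and pair 2 lower, with a mean of -0.60 ± 0.21 (SD, n = 4), or 1.52-fold lower in the mutant (limma, unadjusted p = 0.0194, adjusted p = 0.736). Vkorc1, which regenerates reduced vitamin K and is the target of warfarin, was at -0.07, -0.05, -0.14 and 0.25, with a mean of -0.0038 ± 0.17 (SD, n = 4). The 7 members that are substrates of the carboxylase had a median of -0.30, with 5 negative. The lower ones were Pros1, F9, F7, F10 and Proz, and the other two were F2 and Proc.

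The remaining members are a thrombin receptor and an adhesion protein. F2r, the thrombin receptor PAR1, was at -0.11, -0.09, -0.47 and -0.19, with a mean of -0.21 ± 0.17 (SD, n = 4). Vwf, the von Willebrand factor of endothelium and platelets, had no value in pair 1 and was at -1.003, 0.89 and 1.26 in pairs 2 to 4. Its sign followed the dye orientation, and the mean of the values was 0.38 ± 1.21 (SD, n = 3). The fitted log2 ratio, which gives pair 2 the weight of pairs 3 and 4 together, was 0.037.

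Pairs of opposite dye orientation came from different animals, so labelling and animals cannot be told apart. In 13 of the 32 members with 4 values the 2 orientations did not overlap, where this held for 38.9% of named probes. The lowest unadjusted p of the dye term was 0.0189, for Vwf, and 0 members passed it after adjustment. Fgg averaged -0.50 with the mutant in Cy3 and -0.98 with the mutant in Cy5, Pros1 -0.67 and -0.61, Ggcx -0.73 and -0.47, Plat 0.88 and 0.38, and Plau 0.60 and 0.88. These 5 genes therefore had the same sign in both orientations. Were pairs 3 and 4 to run the other way, the fitted log2 ratio would be 0.24 for Fgg, -0.14 for Plau, -0.031 for Pros1, -0.13 for Ggcx and 0.25 for Plat. The direction of Fgg and Plau, and the size of all 5, thus rest on the reading of the dye swap.

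The spread over pairs differed with probe brightness. The 26 members brighter than the median named probe had a median SD over pairs of 0.21, and the 8 dimmer ones, Plau, Plat, Plaur, F13a1, Vwf, Thbd, Procr and Tfpi, of 0.56. The median over all named probes with 4 values was 0.48. The bright members had a median of -0.16, with 20 negative, where named probes above the median intensity had a median of 0.024. All 9 members lower in 4 of 4 pairs were bright, 9 of 26, where 12.7% of bright named probes with 4 values were, and 1 bright member, Proc, was higher in 4 of 4, where 13.4% were. The dim members had a median of 0.26, with 2 negative.

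**Figure D3:**
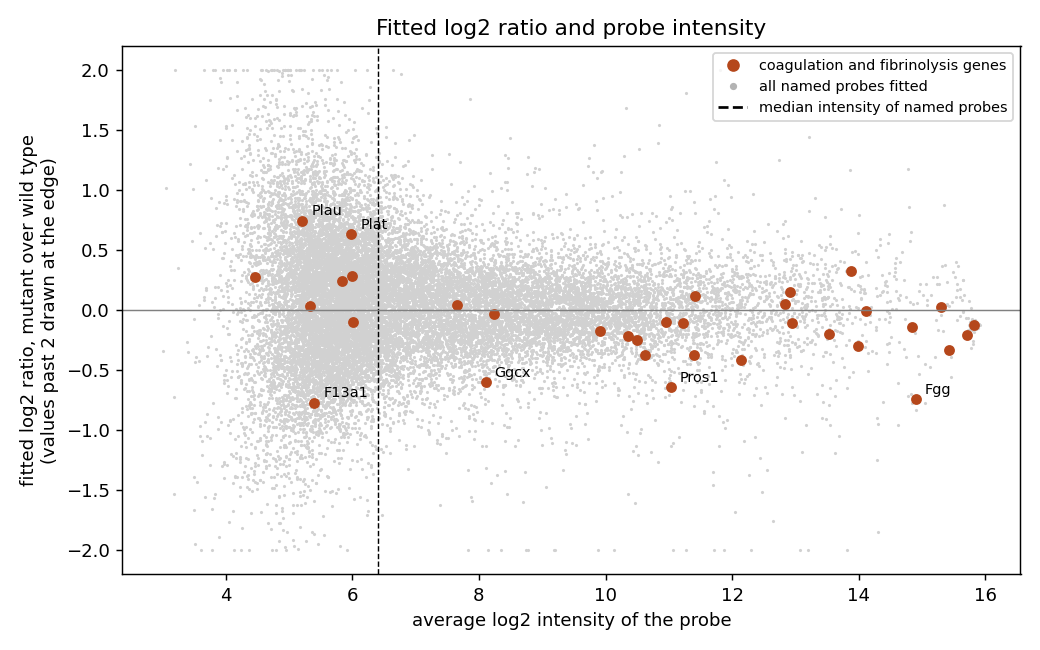
Fitted log2 ratio (y axis, mutant over wild type, values beyond 2 drawn at the edge) against the average log2 intensity of the probe (x axis) for the 34 genes in orange and all named probes fitted in grey, with the median intensity as a dashed line. Most members right of the line lie at or below 0, and Plau, Plat and F13a1 lie left of it where the grey cloud is widest.

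The 20 members made mainly by hepatocytes were all brighter than the median, with a median log2 ratio of -0.16 and 15 negative. In pairs 1 to 4 their medians were -0.07, -0.30, -0.31 and -0.07. The 11 hepatocyte markers had medians of 0.21, 0.35, -0.15 and -0.03 in the same pairs. The median of the members was below theirs in every pair, but close to it in pair 4. Among the markers the plasma protein genes Ttr, Alb, Apoa1 and Apob were negative, at -0.22, -0.16, -0.10 and -0.07, and the other 7 were positive. The 12 members made mainly by endothelium, macrophages and other cells had a median of 0.04, with 5 negative. In liver RNA, fewer cells of a type and less RNA per cell cannot be told apart.

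Markers of those other cells were measured beside them. All 15 Kupffer cell and macrophage markers were positive, with a median of 0.64 and pair medians of 0.73, 1.04, -0.18 and 0.98, while F13a1, a macrophage product, was negative. The 15 sinusoidal endothelial markers had a median of 0.29 and pair medians from 0.18 to 0.38, with 14 positive. Of members that endothelium makes, F8, Vwf and Thbd had fitted ratios of 0.04, 0.04 and -0.10, and Procr, Tfpi and Plat of 0.24, 0.28 and 0.63. Apart from F8, their probes were dimmer than the median named probe. F2r and Tfpi2, also among the members made mainly outside hepatocytes, were at -0.21 and -0.25. Platelet and megakaryocyte markers had a median of 0.11, 10 of 14 positive, with 0 of one sign in all pairs. Selp, P-selectin, averaged 1.24 ± 1.69 and P2ry12, an ADP receptor, 0.33 ± 0.33, while Treml1 averaged -0.18 ± 0.33 (SD, n = 4) and Clec1b -0.32 ± 1.25 (SD, n = 3). Stellate cell markers had a median of 0.12, neutrophil markers 0.10, cholangiocyte markers -0.45, B cell markers 0.91 and erythroid markers 0.50. The part of these cells in the members' values was not tested.

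**Figure D4:**
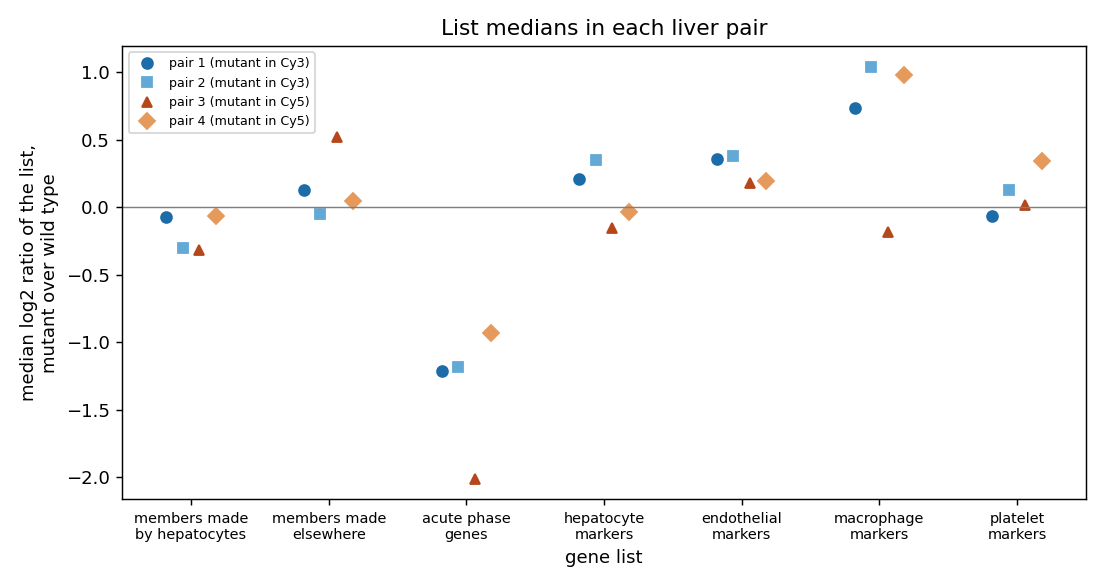
Median log2 ratio (y axis, mutant over wild type) in each liver pair for 7 gene lists (x axis), 1 marker per pair, with blue for the mutant in Cy3 and orange for the mutant in Cy5. The members made by hepatocytes lie between -0.31 and -0.07, near 0 beside the acute phase genes at -2.01 to -0.93.

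Other genes of the pathway also stayed short of the threshold, with 0 of each list past an adjusted p of 0.05 by limma. The 9 haemostatic serpins had a median of -0.39, with 7 negative. Serpina10, the protein Z-dependent inhibitor of factor Xa, was at -0.61, -0.85, -2.02 and -0.45, below 0 in every pair and lowest in pair 3 (mean -0.98 ± 0.71, SD, n = 4). Serpinf2, the main plasmin inhibitor, averaged -0.39 ± 0.30 and was negative in 4 of 4 pairs. Serpind1, heparin cofactor II, averaged 0.06 ± 0.48.

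The 13 genes for export, processing and clearance had a median of -0.12, with 8 negative. Mcfd2, part of the receptor that carries factors V and VIII out of the endoplasmic reticulum, was at -0.65, -0.41, -0.45 and -0.81, a mean of -0.58 ± 0.18 (SD, n = 4). Habp2, the factor VII-activating protease, was at -0.47, -0.27, -0.49 and -0.38. On the other side Adamts13, the protease that trims von Willebrand factor, was at 1.18, 0.36, 0.70 and 0.04, and Asgr1, an asialoglycoprotein receptor subunit, averaged 0.20 ± 0.27. The 8 other vitamin K genes and Gla proteins had a median of -0.02, with 4 negative. Gas6, a vitamin K-dependent ligand related to protein S, averaged -0.64 ± 0.36 and was below 0 in 4 of 4 pairs, as Pros1 was. Vkorc1l1, the paralogue of Vkorc1, averaged -0.26 ± 0.32. Prrg1, a Gla-domain membrane protein, averaged 1.73 ± 1.36, with 3.73 in pair 3, and Mgp, matrix Gla protein, 0.20 ± 0.25.

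The 5 other protease-activated and plasminogen receptors had a median of 0.04, led by F2rl2 at -0.79 ± 0.81 and F2rl1 at 0.36 ± 0.24 (SD, n = 4). Plgrkt averaged -0.17 ± 0.21 and F2rl3 0.07 ± 0.94. The 9 liver transcription factors had a median of 0.26, with 6 positive. Hnf4a, a regulator of many clotting factor genes, was at -0.31, -0.65, -0.62 and 0.22, and Foxa2 averaged -0.11 ± 0.57. Onecut1 averaged 0.67 ± 0.79 and Nr1h4, the bile acid receptor, which also acts on fibrinogen genes in human cells, 0.42 ± 0.14, above 0 in 4 of 4 pairs.

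Fibrinogen is itself an acute phase protein, so 15 other acute phase genes were set beside it. Their median was -1.13, with 13 negative and 12 lower in 4 of 4 pairs, and their pair medians were -1.21, -1.18, -2.01 and -0.93. Saa1 and Saa2, which encode serum amyloid A proteins, were at -4.40 ± 0.46 and -5.29 ± 0.70 (SD, n = 4). Fgg, Pros1 and Serpina10 were each lowest in pair 3, where the acute phase median was lowest too, but Fga and Fgb were lowest in pair 2. Pair 3 also had the lowest median of all members (-0.20), of hepatocyte markers (-0.15) and of macrophage markers (-0.18). It did not have the lowest median of cholangiocyte or stellate cell markers. A link with the acute phase genes was not tested. Hp, Itih4 and Hpx, bright plasma protein genes, were at -0.31 ± 0.18, -0.28 ± 0.15 and -0.56 ± 0.36, within the range of the 3 fibrinogen chains. Cebpd, a transcription factor, was at 0.72 ± 0.29, above 0 in 4 of 4 pairs, and Il1rn, the interleukin 1 receptor antagonist, at 0.35 ± 1.54, with both signs.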

How the data were processed

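RNA of 4 Wrn mutant and 4 wild-type livers was measured in pairs on 4 arrays, which the labels call independent biological replicates. Per the file headers, the deposited values are log2 ratios, 1 for each probe on each array, beside a gene table of average log2 intensities and log2 fold changes. Only limma is named in the submitters' processing notes; its version, the background correction, the normalization and the choice of probe were not given in the sources used here. Average intensity depends on the probe and was not compared between genes as a level.

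Analyses used R 4.3.3, limma 3.58.1 and Python 3.11.15. All 40238 probes with at least 3 values were fitted on genotype plus dye orientation (lmFit, eBayes, Benjamini-Hochberg, 0.05), and members were read from that fit. A run of the fit on simulated data used changes larger than that of any member, so it does not cover changes of the members' size. Mean ± SD is over pairs. Fully described genes had 1 sign in 4 of 4 pairs and a mean over 0.5 in size, or were the highest or lowest of their role; further members are named with their values so that all 34 are accounted for. For other lists up to 2 genes per direction with the smallest unadjusted p are named, with 1 exception that is not reported here, and Hp, Itih4, Hpx and the contrasts between members were chosen after their values were seen. Members and lists were chosen with earlier results of these data known. Names and promoters came from RefSeq (GRCm38.p6). Alternatives covered centring, scaling, array weights, variance priors, probe filters, the dye term and swap, and each pair. The number of arrays limits the precision.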

Additional observations from a re-analysis of the deposited data

Results flagged for a closer look

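The members with 4 values and the medians of their groups, 43 results, were searched for a single pair standing far from its fellows. There were 2, where chance gives about 2.15. Fgb was at -0.65 in pair 2, against -0.11 to -0.02 in the other pairs. Ggcx was at -0.92 in pair 2, against -0.54 to -0.46 in the other pairs. Both had the same sign in the remaining pairs.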

How the results depend on the processing

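In 15 alternative settings 0 members passed an adjusted p of 0.05 with limma, and the lowest adjusted p of any member was 0.151. Over all probes the fit with the dye term called 0, with 2673 at an unadjusted p under 0.05, and that without it called 0. The count was 42 of the named probes with a prior variance following intensity and 1 with only named probes above the median intensity. The members' median log2 ratio, -0.11, was -0.20 with arrays centred on hepatocyte markers and -0.025 with pairs 3 and 4 turned, and ran from -0.18 to -0.053 without 1 pair. Members lower in all pairs, 9, numbered 10 to 14 without 1 pair, where fewer pairs have to share a sign. They numbered 0 with pairs 3 and 4 turned, but turning gives each of the 9 mixed signs by construction, so their loss tests nothing. That opposite reading of the dye swap changed the sign of 20 members, with fitted log2 ratios of F2r 0.11, Vwf -1.04, Tfpi2 0.50, Thbd 0.38, Procr -0.066, Tfpi -1.16, Proc -0.050, F9 0.12, Kng2 0.13, F12 -0.085, Klkb1 -0.26, F10 0.12, F5 -0.10, F13a1 0.033, Fgg 0.24, F13b 0.25, Cpb2 0.14, Hrg 0.24, Plaur -0.44 and Plau -0.14, and which reading holds rests on how the authors averaged the arrays. With arrays centred on hepatocyte markers Vwf was at -0.093, F8 at -0.052, F12 at -0.044 and F2 at -0.066. Without 1 pair, 24 members kept their sign and 10 did not, Cpb2 from -0.53 to 0.18, F12 from -0.027 to 0.13, F2 from -0.036 to 0.092, F3 from -0.26 to 0.19, F8 from -0.010 to 0.095, Klkb1 from -0.027 to 0.26, Procr from -0.030 to 0.52, Tfpi from -0.54 to 1.10, Thbd from -0.52 to 0.33 and Vkorc1 from -0.10 to 0.093. Of those that kept it, some had a value over 1.5 times away from that of the main fit. They were Plau (0.49 to 1.001), Proc (0.21 to 0.43), Plaur (0.11 to 0.45), F5 (0.067 to 0.24), F11 (-0.59 to -0.17), Plg (-0.48 to -0.19), Fgb (-0.33 to -0.068), Fga (-0.29 to -0.13), Hrg (-0.25 to -0.033), Kng1 (-0.20 to -0.048), Kng2 (-0.18 to -0.040), Proz (-0.16 to -0.051) and F13b (-0.14 to -0.052). By that measure Fgg (-0.91 to -0.58) and Pros1 (-0.83 to -0.46) moved less. F13a1 and Vwf, with no value in pair 1, could be fitted only without that pair and count among the 24. In such fits the lone pair of its orientation counts as much as the other two together. Centring on all probes, scaling, array weights, robust eBayes, only probes with 4 values, only named probes and no dye term changed the sign of 0 members. Signal over background was not analysed here, and dim probes such as those for Tfpi and Vwf had the widest spread.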
